A study of Mus musculus with 6 samples.

Results

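Expression of 9 genes of the tumor necrosis factor (TNF) family was followed in 6 RNA-seq libraries of a mouse thymoma cell line. The genes were chosen by symbol, as the row of each symbol in the deposited table, and make up 9 of its 25001 loci. They comprise the ligands Tnf and Tnfsf9, the receptors Tnfrsf1a, Tnfrsf1b, Tnfrsf10b, Tnfrsf12a and Fas, and 2 genes that are neither ligand nor receptor, Tnfaip2, a TNF-induced protein, and Traf1, a receptor adaptor. The 427.1.86 thymoma cells (427 cells) carried the empty pSUPER vector and received DMSO or PMA, a phorbol ester that activates protein kinase C. SP2bKD cells, their derivative with a knockdown of the intramembrane protease SPPL2b, received DMSO or PMA as well. After 2 h without serum, cells were exposed to 1 µM PMA for 2 h, and the library of SP2bKD cells with DMSO was taken to have had the same schedule, which the labels do not spell out. SP2bKD cells were also transfected with GFP alone or with GFP plus EICD, the Flag-tagged first 55 residues of epithin/PRSS14 that make up its intracellular domain, and GFP-positive cells were sorted 24 h later. The methods describe the knockdown as a stable shRNA and the knockdown line as a single-cell clone, whereas the labels give an siRNA. Each condition had 1 library. The differences therefore have no replicate check and compare libraries, and no test across genes was made.

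Ligands of the TNF superfamily are mostly trimeric type II membrane proteins that are active at the cell surface or after shedding by proteases such as ADAM17. Their receptors either carry a cytoplasmic death domain, as TNFR1 and Fas do, and can lead to caspase-8, or bind TRAF adaptors directly and feed NF-kappaB and the MAP kinases. In the thymus, members of the family such as RANK, CD40 and the lymphotoxin beta receptor are known for their part in the development of medullary epithelium.

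The promoters of 4 genes are shown, Traf1 and Tnfaip2, which had the largest fold changes with PMA among members that reached 1 FPKM in the libraries compared, and Tnf and Fas, which had the largest with EICD by the same measure. RefSeq windows on GRCm38.p6 were found for 7 of the 9 genes, without an entry for Tnfsf9 and Tnfrsf10b, and the 250 bases before each RefSeq start are given, read 5′ to 3′ on the strand of the gene. Capitals mark a match to the AP-1 motif TGANTCA or to the NF-kappaB consensus on either strand.
Tnf, chr17:35202008-35202257, minus strand: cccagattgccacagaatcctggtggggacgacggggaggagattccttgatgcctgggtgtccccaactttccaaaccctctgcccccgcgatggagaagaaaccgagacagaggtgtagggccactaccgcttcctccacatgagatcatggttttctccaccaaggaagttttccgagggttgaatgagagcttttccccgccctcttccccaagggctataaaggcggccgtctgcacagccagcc
Fas, chr19:34290409-34290658, plus strand: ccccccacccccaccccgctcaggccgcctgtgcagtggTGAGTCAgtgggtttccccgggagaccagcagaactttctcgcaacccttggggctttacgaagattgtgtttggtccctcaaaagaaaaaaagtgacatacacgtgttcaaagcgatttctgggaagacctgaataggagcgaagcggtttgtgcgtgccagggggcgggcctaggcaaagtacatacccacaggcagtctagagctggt
Tnfaip2, chr12:111442411-111442660, plus strand: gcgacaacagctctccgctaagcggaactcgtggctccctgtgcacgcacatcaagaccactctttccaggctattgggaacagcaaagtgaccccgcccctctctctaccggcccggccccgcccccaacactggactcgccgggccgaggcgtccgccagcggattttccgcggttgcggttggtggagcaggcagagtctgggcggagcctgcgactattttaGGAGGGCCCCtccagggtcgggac
Traf1, chr2:34961773-34962022, minus strand: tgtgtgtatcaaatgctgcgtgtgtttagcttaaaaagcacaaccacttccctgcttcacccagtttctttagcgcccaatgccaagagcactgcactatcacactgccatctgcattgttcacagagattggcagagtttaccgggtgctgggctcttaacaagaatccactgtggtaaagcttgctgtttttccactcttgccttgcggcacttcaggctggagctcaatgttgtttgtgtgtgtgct
The Fas window held 1 AP-1 match, TGAGTCA, at 211 to 205 bases before the start. The Tnfaip2 window held 1 NF-kappaB match, GGAGGGCCCC, at 24 to 15 bases before the start, and the other 5 windows held neither motif. Of all 32851 windows of this length, 6.75% held the AP-1 motif and 7.25% the NF-kappaB consensus, and no match overlapped another in these genes. Such a match describes the letters of a window and is neither a bound site nor a cause. The deposited Tnfaip2 locus starts at 111442469, inside its window and upstream of the NF-kappaB match, so that match lies within the locus.

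Values are FPKM, fragments per kilobase of exon scaled to the library by the authors, so levels can be set side by side between genes. Depth estimated from the lowest FPKM steps was 26000000 to 30500000 fragments per library, and 10555 to 10873 loci reached 1 FPKM. The FPKM sum ran from 6238460 to 14815400 and was dominated by few loci, the 10 largest holding 85.6% to 94.2% of it. Sppl2b had 9.90 FPKM in 427 cells and 13.4 FPKM in SP2bKD cells with DMSO, and 6.86 and 9.37 FPKM with PMA. The gene targeted by the knockdown was therefore not lower in the libraries labelled as knockdown, which bears on each direction drawn between the lines. The study chose its knockdown clones by qPCR of SPPL2b and reported less EICD with PMA in them. The FPKM values of 1 library per condition do not address those experiments. St14, which encodes epithin/PRSS14, had 615 FPKM in the GFP plus EICD library and 69.6 to 105 FPKM in the other 5. Of 7 thymic epithelial markers, 6 reached 1 FPKM in every library (summed level 6091 to 14885 FPKM), among them Krt5, Krt14 and Foxn1, while Psmb11 did not. None of 8 T-lineage markers reached 1 FPKM (sum 0.0304 to 0.340 FPKM), and Cd3d, Cd3e, Cd4 and Thy1 were listed at 0 throughout. None of 4 fibroblast markers did either (sum 0.185 to 0.501 FPKM). Of 6 macrophage markers, Csf1r, Cd68 and Cd14 reached 1 FPKM in every library, with Adgre1 listed at 0 (sum 7.04 to 12.2 FPKM, lowest in the sorted cells), and their part in the results was not tested.

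The 2 ligands differed widely in level. Tnf (ENSMUSG00000024401, chr17:35199381-35202007, minus strand), the founding inflammatory cytokine of the family, was listed at 0 in 427 cells and in SP2bKD cells with DMSO. Its level was 0.674 FPKM in 427 cells with PMA, 0.367 FPKM in SP2bKD cells with PMA, 0.198 FPKM with GFP and 1.10 FPKM with GFP plus EICD. Tnf was therefore detected in 4 of 6 libraries and passed 1 FPKM in the GFP plus EICD library alone. These levels rest on few fragments, at most an estimated 33.0 and 18.4 with PMA, 8.52 with GFP and 47.3 with GFP plus EICD. Tnfsf9 (ENSMUSG00000035678, chr17:57105385-57107757), the ligand of the costimulatory receptor 4-1BB, had 8.43 and 15.8 FPKM in 427 cells with DMSO and PMA, 8.78 and 13.3 FPKM in SP2bKD cells, 7.54 FPKM with GFP and 9.33 FPKM with GFP plus EICD. Both PMA libraries lay above the other 4.

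The receptors spanned the range from Tnfrsf1b to Tnfrsf12a. Tnfrsf12a (chr17:23675447-23677449, minus strand), the receptor Fn14 for TWEAK, had 121 and 323 FPKM in 427 cells with DMSO and PMA, 123 and 263 FPKM in SP2bKD cells, 127 FPKM with GFP and 133 FPKM with GFP plus EICD. The 4 libraries without PMA lay close together, and both PMA libraries stood apart from them. Tnfrsf1a (chr6:125349362-125362484), which encodes the death domain receptor TNFR1, had 41.3 and 52.5 FPKM in 427 cells, 43.6 and 49.4 FPKM in SP2bKD cells, 52.4 FPKM with GFP and 59.9 FPKM with GFP plus EICD. It varied least of the 9 genes, by 1.45-fold between the lowest and the highest library. Tnfrsf10b (chr14:69767472-69784403), the mouse receptor of TRAIL, had 10.4 and 12.1 FPKM in 427 cells, 7.80 and 9.13 FPKM in SP2bKD cells, 8.60 FPKM with GFP and 10.7 FPKM with GFP plus EICD. Here the PMA and DMSO libraries of the 2 lines overlapped in level.

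Fas and Tnfrsf1b were the receptors with the lower levels. Fas (chr19:34290659-34327770), the death receptor of Fas ligand, had 5.46 and 9.67 FPKM in 427 cells with DMSO and PMA, 7.24 and 12.4 FPKM in SP2bKD cells, 4.33 FPKM with GFP and 14.1 FPKM with GFP plus EICD. Its lowest and highest libraries were thus the pair of transfected ones. Tnfrsf1b (chr4:145213282-145246919, minus strand), which encodes TNFR2, a receptor without a death domain, had 2.81 and 6.11 FPKM in 427 cells, 2.12 and 4.87 FPKM in SP2bKD cells, 2.79 FPKM with GFP and 5.65 FPKM with GFP plus EICD. Both PMA libraries and the GFP plus EICD library stood above the other 3.

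Tnfaip2 (chr12:111442469-111455018), first described as a TNF-induced gene, had 13.8 and 70.7 FPKM in 427 cells with DMSO and PMA, 21.9 and 66.0 FPKM in SP2bKD cells, 31.6 FPKM with GFP and 47.8 FPKM with GFP plus EICD. Both PMA libraries were highest, and both sorted libraries lay between them and the DMSO libraries. Traf1 (chr2:34941750-34961772, minus strand), a TRAF adaptor of TNFR2 and itself a target of NF-kappaB, had 0.133 and 2.73 FPKM in 427 cells, 0.342 and 2.18 FPKM in SP2bKD cells, 0.0206 FPKM with GFP and 0.0696 FPKM with GFP plus EICD. It passed 1 FPKM in the PMA libraries alone, where it rests on an estimated 280 and 228 fragments, against 13.2 and 30.6 fragments with DMSO and 1.86 and 6.29 fragments in the sorted cells. On the annotation, exons of an antisense gene overlap Tnfaip2 and exons of an opposite-strand lincRNA overlap Tnfsf9, and reads of such pairs cannot be told apart without strand.

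**Figure D1:**
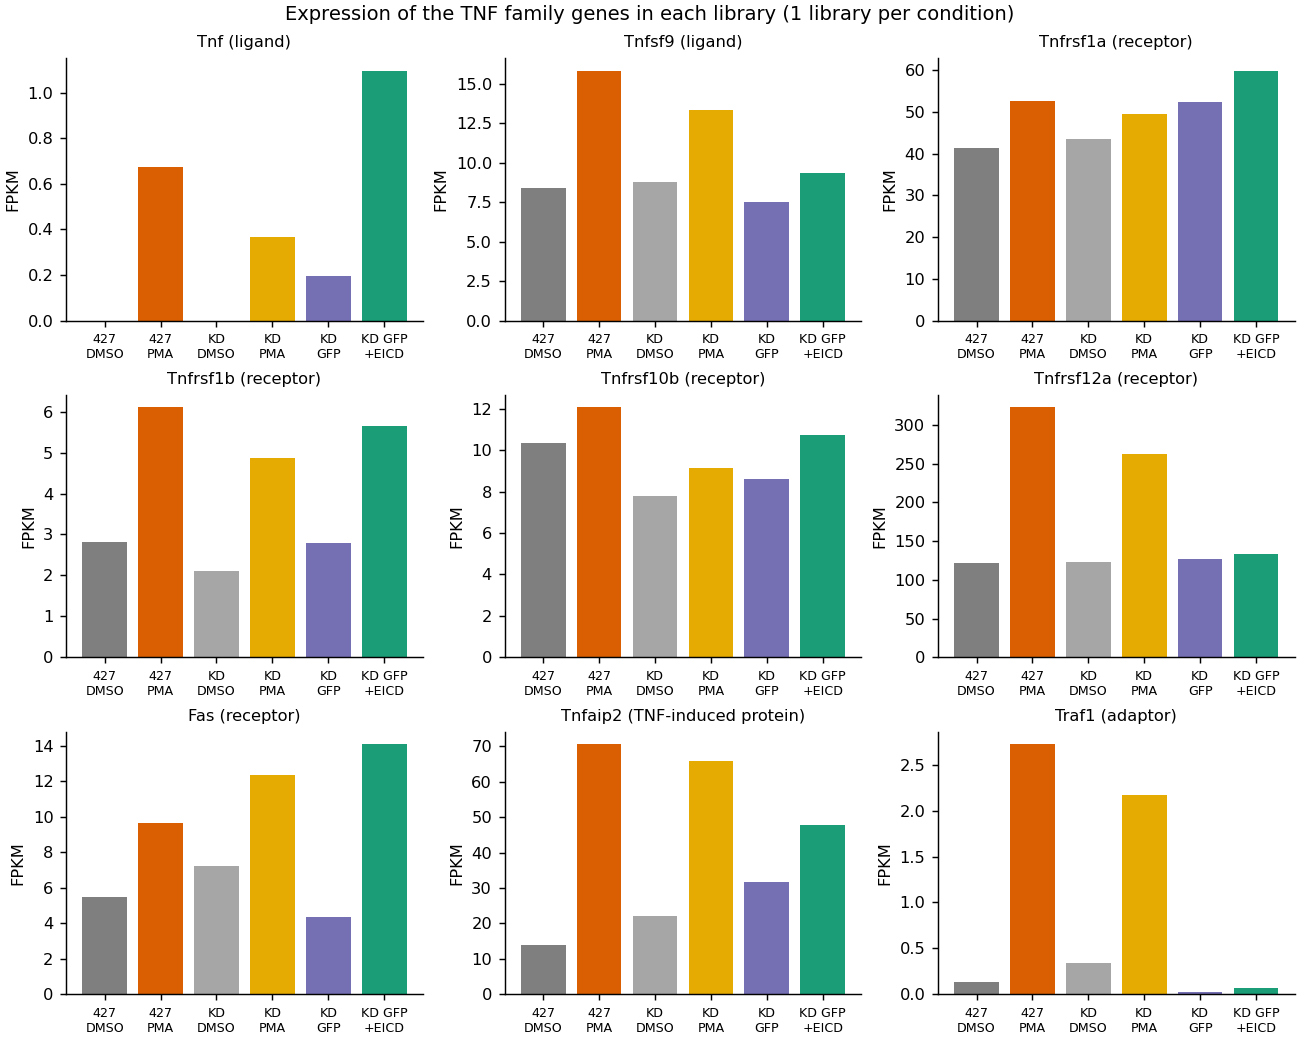
Each panel plots 1 gene, with FPKM on the y axis from 0 and 1 bar per library, in the order 427 DMSO, 427 PMA, SP2bKD (KD) DMSO, KD PMA, KD GFP and KD GFP plus EICD. The highest bar is 427 PMA for 6 genes, and GFP plus EICD for Tnf (1.10 FPKM), Tnfrsf1a (59.9 FPKM) and Fas (14.1 FPKM).

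By mean level the order was Tnfrsf12a, Tnfrsf1a, Tnfaip2, Tnfsf9, Tnfrsf10b, Fas, Tnfrsf1b, Traf1 and Tnf. Tnfrsf12a was first in all 6 libraries, and its range overlapped that of no other member. The ranges of every other pair of neighbours in this order overlapped over the libraries, and Tnfaip2 exceeded Tnfrsf1a in the PMA libraries of both lines but in no other library. Tnfsf9, Tnfrsf10b and Fas changed places from library to library, whereas Tnfrsf1b lay below all 3 of them, and above Traf1 and Tnf, in every library. Tnf lay below Traf1 in the 4 untransfected libraries and above it in both sorted ones.

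In 427 cells, PMA gave higher levels of Traf1, Tnfaip2, Tnfrsf12a and Tnfrsf1b, each by more than 2-fold. The FPKM ratio of PMA to DMSO was 20.5 for Traf1 (95% counting interval 11.8 to 38.7), 5.12 for Tnfaip2 (4.85 to 5.41), 2.66 for Tnfrsf12a (2.56 to 2.77) and 2.18 for Tnfrsf1b (1.90 to 2.50). These are conditional intervals from the estimated fragments, which are upper estimates, so the intervals may be too narrow. They cover counting error only, not the spread between cultures. Thus an adaptor, a TNF-induced gene and 2 TRAF-binding receptors had the largest ratios among the members past 1 FPKM. The ratio was 1.88 for Tnfsf9 (1.64 to 2.16) and 1.77 for Fas (1.52 to 2.07), both under 2-fold. It was 1.27 for Tnfrsf1a (1.21 to 1.34) and 1.16 for Tnfrsf10b (1.07 to 1.27), the smallest of the members, and with each library scaled to the same FPKM sum the log2 fold change of Tnfrsf10b was -0.03. Tnf with PMA was at 10.6 times a floor of 3 fragments in the DMSO library, 0.0635 FPKM, but it stayed under 1 FPKM. Such a ratio to the floor leaves out the counting error of the PMA library. The floor uses the longest transcript and is a low estimate, so the ratio is not a strict lower bound.

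Counts took loci that have a symbol and reach 1 FPKM in either library of a comparison. On log2(FPKM + 0.01), 4 of the 8 members that passed this filter were more than 2-fold higher and 0 were lower. Of all 10643 such loci, 3.91% were higher and 4.67% lower by more than 2-fold. The median log2 fold change was 1.01 over the 8 members and -0.12 over all loci. Traf1 passed the filter only through its PMA library and so had to differ, and neither its count nor the median is support for a shared response. In the order of log2 fold changes, Traf1 was at position 21, Tnfaip2 at 85, Tnfrsf12a at 239 and Tnfrsf1b at 358 of 10643. Tnfrsf1b fell short of 2-fold with 1 FPKM added to both libraries, at 0.90, and with equal FPKM sums, at 0.84.

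In SP2bKD cells, the same 4 genes were more than 2-fold higher with PMA. The ratio was 6.36 for Traf1 (4.35 to 9.61), 3.01 for Tnfaip2 (2.87 to 3.16), 2.30 for Tnfrsf1b (1.96 to 2.71) and 2.14 for Tnfrsf12a (2.05 to 2.23). The ratio was 1.71 for Fas (1.49 to 1.96) and 1.52 for Tnfsf9 (1.31 to 1.76). The ubiquitously expressed Tnfrsf1a had a ratio of 1.13 (1.08 to 1.20), and Tnfrsf10b had 1.17 (1.06 to 1.30). Tnf was at 5.22 times a floor of 0.0704 FPKM and again under 1 FPKM. The 4 genes make 4 of 8 members past the filter, with 0 lower, where 3.51% of 10624 loci were higher and 5.69% lower by that much. The median log2 fold change was 0.93 over the members and -0.15 over all loci, and Traf1 again passed only through its PMA library. With 1 FPKM added, Tnfrsf1b was at 0.91.

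**Figure D2:**
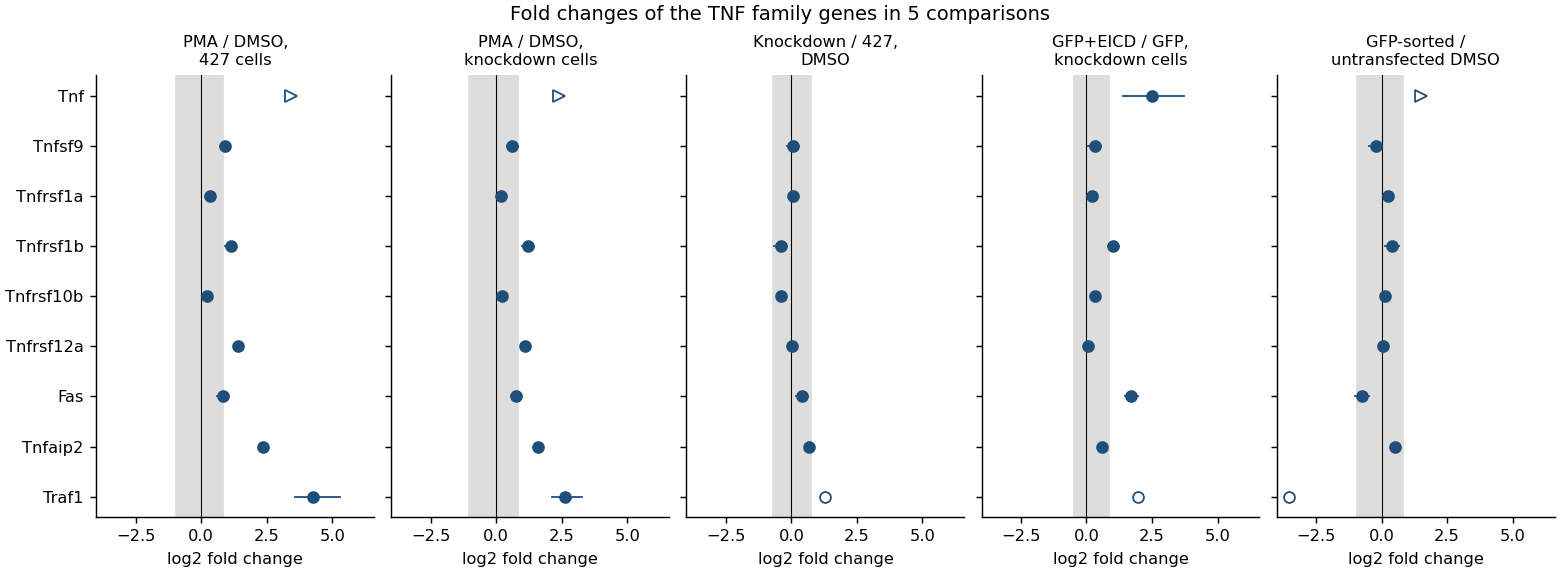
Each panel is 1 comparison, with the log2 fold change on the x axis and the 9 genes on the y axis. Points are log2 fold changes on FPKM with 0.01 added, lines 95% counting intervals and grey bands the middle 90% of all loci. Open circles are members under 1 FPKM in both libraries. Open triangles are ratios of Tnf to the floor of 3 fragments where it was listed at 0, and no point is drawn where it was at 0 in both. Of the filled points in both PMA panels Traf1, at 4.26 and 2.63, lies farthest to the right, and with EICD Tnf does, at 2.49.

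The PMA changes of the 2 lines were set against each other as the log2 fold change in SP2bKD cells minus that in 427 cells. Traf1 had the largest difference, at -1.62, followed by Tnfaip2 at -0.76. The counting intervals of the 2 ratios did not overlap for these genes, nor for Tnfrsf12a and Tnfrsf1a. Their DMSO levels were higher in SP2bKD cells, 0.342 against 0.133 FPKM for Traf1 and 21.9 against 13.8 FPKM for Tnfaip2, while their levels with PMA differed less, 2.18 against 2.73 FPKM and 66.0 against 70.7 FPKM. The difference was -0.32 for Tnfrsf12a, -0.31 for Tnfsf9, -0.17 for Tnfrsf1a, -0.05 for Fas, 0.01 for Tnfrsf10b and 0.08 for Tnfrsf1b. Of 8 members past the filter, 1 was more than 2-fold lower (Traf1) and 0 higher, where 2.09% of 10845 loci were lower and 1.18% higher. The PMA change was smaller in SP2bKD cells for 6 of the 8 members, with differences from -0.05 to -1.62. Over all loci, about as many differences lay below 0 as above it. The median difference was -0.24 over the members and -2.4e-05 over all loci. With each library scaled to the same FPKM sum, the difference turned to 0.11 for Tnfrsf1a and 0.23 for Fas, and the median over the members moved to 0.04. Traf1 was then at -0.74, short of 2-fold. That scaling divided FPKM by 6.24 to 14.8 before 0.01 was added, so the added amount weighed more on low levels. The value for Traf1 therefore does not reflect the scaling alone.

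**Figure D3:**
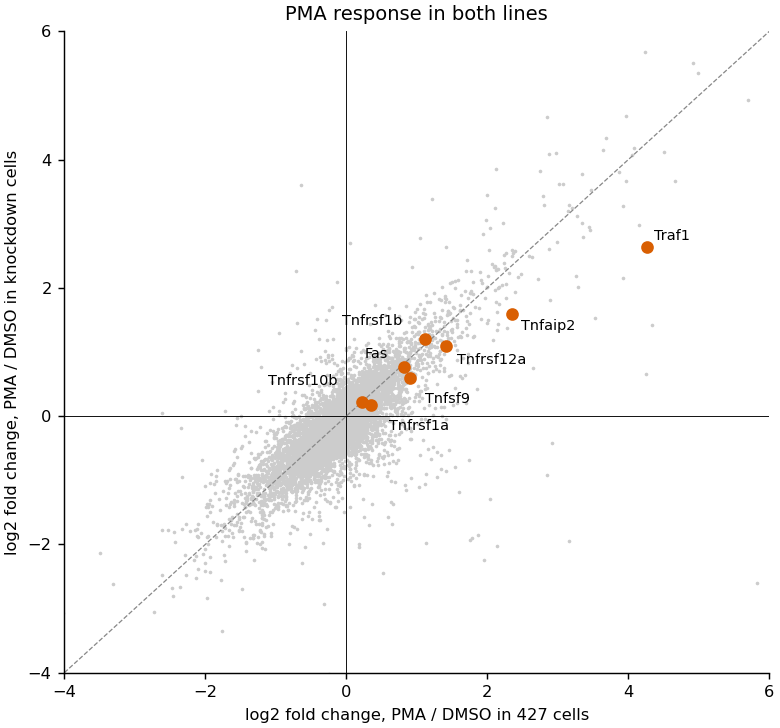
The x axis is the log2 fold change with PMA in 427 cells and the y axis that in SP2bKD (knockdown) cells, with grey points for all loci, large points for the 8 members past 1 FPKM and a dashed line where both are equal. Traf1 (4.26 and 2.63) and Tnfaip2 (2.35 and 1.59) lie below the line, and Tnfrsf1b (1.12 and 1.20) lies slightly above it.

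Without PMA, the 7 members past the filter were within 2-fold between SP2bKD and 427 cells. Tnfaip2, with a ratio of 1.59 (1.49 to 1.69), and Fas, with 1.33 (1.12 to 1.57), were higher in SP2bKD cells. Tnfrsf10b, with 0.752 (0.679 to 0.832), and Tnfrsf1b, with 0.754 (0.630 to 0.902), were lower, but turned to log2 differences of 0.55 and 0.54 with equal FPKM sums, a scaling that moved the median of all loci by 0.96. Tnfrsf12a (1.01), Tnfsf9 (1.04) and Tnfrsf1a (1.06) had intervals that included 1. Tnf was listed at 0 in both, and Traf1 stayed under 1 FPKM at a ratio of 2.57 (1.31 to 5.32). Thus 0 of 7 members were more than 2-fold higher or lower, where 3.11% of 10706 loci were higher and 2.76% lower, and the median log2 difference was 0.06 over the members and 0.05 over all loci. A single clone stood for the knockdown, so that clone and knockdown cannot be told apart.

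EICD was compared with GFP alone in sorted SP2bKD cells, with 1 library on each side. EICD and other differences between these transfections cannot be told apart. Higher levels with EICD, by more than 2-fold, were seen for Tnf, Fas and Tnfrsf1b. The FPKM ratio was 5.56 for Tnf (2.65 to 13.2), 3.26 for Fas (2.76 to 3.86) and 2.03 for Tnfrsf1b (1.76 to 2.35), a ligand, a death receptor and the second TNF receptor. It was 1.51 for Tnfaip2 (1.44 to 1.58), the next in size. Of the well-expressed receptors, Tnfrsf12a had a ratio of 1.05 (1.00 to 1.10) and Tnfrsf1a one of 1.14 (1.09 to 1.20), while Tnfrsf10b had 1.25 (1.13 to 1.38). The ligand Tnfsf9 had a ratio of 1.24 (1.05 to 1.47). Traf1 was under 1 FPKM in both libraries, at an estimated 1.86 and 6.29 fragments, with a ratio of 3.38 (0.595 to 37.9), so that a difference was not detectable at this depth. In the GFP library Fas (4.33 FPKM) was also lower than in untransfected SP2bKD cells with DMSO (7.24 FPKM).

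In this comparison the amount of 0.01 went to the EICD side alone, and loci below 0.01 FPKM with GFP were left out. Of 8 members past the filter, 3 were more than 2-fold higher and 0 lower, where 3.58% of 10682 loci were higher and 0.506% lower. The median log2 fold change was 0.46 over the members and 0.07 over all loci. All 8 members lay above 0, against 58.3% of all loci, but with equal FPKM sums Tnfrsf12a was at -0.11. Tnf passed the filter only through the GFP plus EICD library and so had to differ, and Tnfrsf1b was just past the threshold at a log2 fold change of 1.02. With 1 FPKM added to both libraries Fas alone stayed past 2-fold, Tnf being at 0.81 and Tnfrsf1b at 0.81. Tnfrsf1b was also short of 2-fold with 0.1 FPKM added, with the median-ratio scaling (0.99) and with equal FPKM sums (0.86). Tnf was at position 26, Fas at 87 and Tnfrsf1b at 363 of the 10682 loci. Of the members that passed 1 FPKM in all 3 comparisons, Tnfrsf1b was past 2-fold with PMA in both lines and with EICD. With 1 FPKM added it fell short in each, and the share of all loci past 2-fold in all 3 was not determined. With a minimum of 0.01 FPKM, Tnf and Traf1 were also past 2-fold in all 3. Tnf was listed at 0 with DMSO in both lines, so its PMA values depend on the 0.01 added. The counting interval of Traf1 with EICD ran from 0.595 to 37.9 and so included 1.

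**Figure D4:**
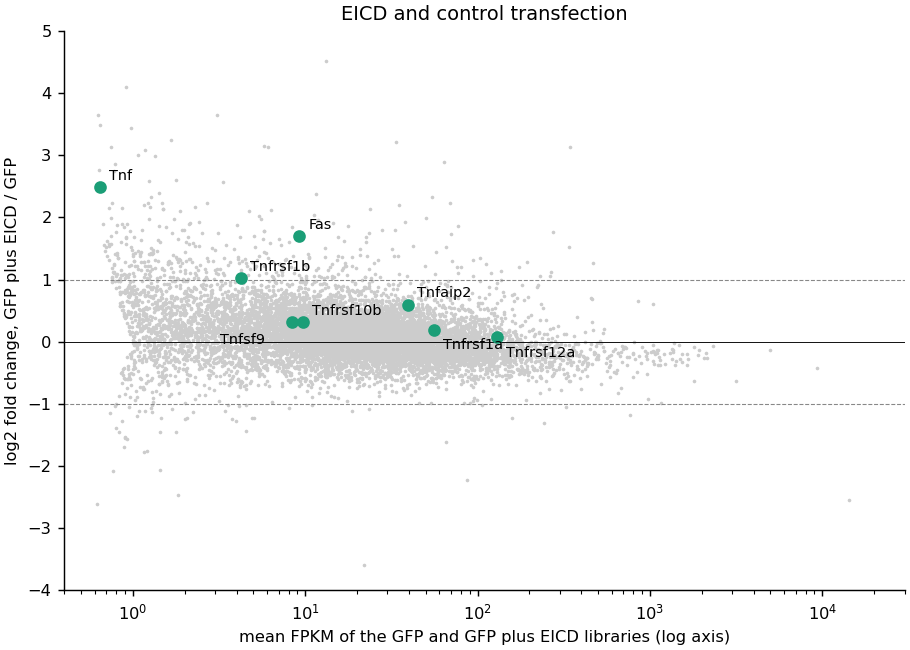
The x axis is the mean FPKM of the GFP and GFP plus EICD libraries on a log axis, and the y axis the log2 fold change with EICD. Grey points are all loci past the filter, large points the 8 members, and dashed lines mark 2-fold. Tnf (2.49), Fas (1.70) and Tnfrsf1b (1.02) lie above the upper line, and Tnf sits among the loci of lowest FPKM, where the spread is widest.

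The GFP library differed from SP2bKD cells with DMSO in transfection, sorting and serum withdrawal, which cannot be told apart. Tnfaip2 was higher with GFP at a ratio of 1.44 (1.37 to 1.53), Tnfrsf1b at 1.32 (1.10 to 1.58) and Tnfrsf1a at 1.20 (1.14 to 1.27). Fas was lower at 0.598 (0.496 to 0.720). The ratio was 0.858 for Tnfsf9 (0.723 to 1.02), 1.10 for Tnfrsf10b (0.989 to 1.23) and 1.03 for Tnfrsf12a (0.981 to 1.08), all with intervals that included 1. Of the genes under 1 FPKM, Traf1 was lower at 0.0603 (0.00623 to 0.247), and Tnf was at 2.81 times the floor of the DMSO library. Of 7 members past the filter, 0 were more than 2-fold higher or lower, where 3.56% of 10687 loci were higher and 4.14% lower. The SP2bKD library with DMSO also served in the PMA comparison and in that of the lines, and the GFP library in that of EICD, so these are not independent of one another.

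The rest of the pathway was taken from lists of ligands, receptors, adaptors, processing enzymes and Tnfaip genes. Of 90 distinct genes, the 9 members included, 87 had a row, without Tnfsf12, Tnfrsf25 and Tradd. Few ligands were expressed, with 3 of 17 at 1 FPKM or more in some library (Tnf, Tnfsf9 and Tnfsf15) and Cd40lg, Fasl, Tnfsf11 and Tnfsf14 listed at 0 in all 6. Fas was thus expressed without a detected Fas ligand. Of 27 receptors, 15 reached 1 FPKM in some library and 11 in every library, and Tnfrsf11a, which encodes RANK, and Tnfrsf13b were listed at 0. Adaptors and signalling genes were mostly expressed, 26 of 28 in some library, as were the processing genes, 8 of 8, and 5 of 7 Tnfaip genes.

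**Figure D5:**
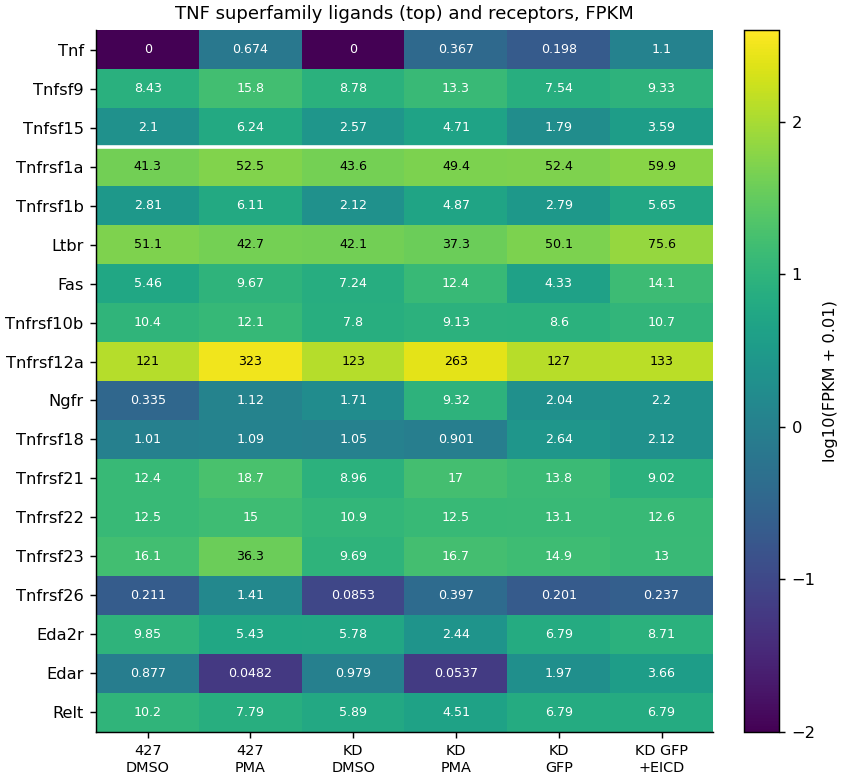
Rows are the ligands (above the white line) and receptors of the TNF superfamily that reached 1 FPKM in some library, columns the 6 libraries, with FPKM printed in each cell and colour giving log10(FPKM + 0.01). Tnfrsf12a is the highest in each column, from 121 to 323 FPKM, and Tnf is at 0 in both DMSO columns.

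With PMA in 427 cells, 10 of the 55 pathway genes past the filter were more than 2-fold higher (18.2%) and 0 lower, beside 3.91% and 4.67% of all loci. Beside the 4 members these were Tnfrsf26, at a log2 fold change of 2.69, Tnfaip3 at 2.11, Ngfr at 1.71, Tnfsf15 at 1.57, Tnfrsf23 at 1.17 and Cflar at 1.01. Like Traf1, Tnfrsf26 (0.211 and 1.41 FPKM) and Ngfr passed the filter only through the PMA library and so had to differ. Tnfaip3 encodes A20, which restrains NF-kappaB signalling, and Cflar encodes the caspase-8 inhibitor c-FLIP. Tnfrsf23 and Tnfrsf26 are similar neighbours in a gene cluster and may share reads. In SP2bKD cells, 7 of 53 were higher (13.2%) and 1 lower (1.89%), beside 3.51% and 5.69% of all loci. Beside the members these were Ngfr at 2.44, Tnfaip3 at 2.33 and Rhbdf1, a cofactor of ADAM17, at 1.07, with Eda2r lower at -1.24. Of 26 adaptor and signalling genes in each line, Traf1 and Cflar were past 2-fold in 427 cells and Traf1 alone in SP2bKD cells. The shares above include the members, which were chosen with earlier results known. Outside the members, 3 of 9 receptors, 1 of 25 adaptor and signalling genes and 1 of 4 Tnfaip genes were higher in 427 cells. In SP2bKD cells these were 1 of 8, 0 of 25 and 1 of 4. Of the processing genes, 0 of 8 and 1 of 7 were higher in the 2 lines.

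Tnfaip3 had 15.0 and 64.7 FPKM in 427 cells with DMSO and PMA, 9.99 and 50.4 FPKM in SP2bKD cells, 27.8 FPKM with GFP and 53.3 FPKM with GFP plus EICD. Like Tnfaip2, it was higher in both sorted libraries than in both DMSO libraries. Tnfsf15, the ligand TL1A, had 2.099 and 6.24 FPKM in 427 cells, 2.57 and 4.71 FPKM in SP2bKD cells, 1.79 FPKM with GFP and 3.59 FPKM with GFP plus EICD. Ngfr, the low-affinity neurotrophin receptor, had 0.335 and 1.12 FPKM in 427 cells, 1.71 and 9.32 FPKM in SP2bKD cells, 2.04 FPKM with GFP and 2.20 FPKM with GFP plus EICD, so that both 427 libraries lay below all of the SP2bKD libraries.

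With EICD, 4 of 55 pathway genes were more than 2-fold higher (7.27%) and 0 lower, beside 3.58% and 0.506% of all loci. They were the 3 members and Tnfsf15, which was at the threshold with a log2 fold change of 1.00. The share includes the members, which were chosen with earlier results known. Outside the members, Tnfsf15 was the only ligand past the filter. Of the other lists, 0 of 9 receptors, 0 of 25 adaptor and signalling genes, 0 of 8 processing genes and 0 of 4 Tnfaip genes were higher. Between the lines with DMSO, 1 of 53 was higher (Ngfr, 2.32) and 1 lower (Timp3, an inhibitor of ADAM17, -1.42), beside 3.11% and 2.76% of all loci. Between the GFP library and SP2bKD cells with DMSO, 4 of 54 were higher (7.41%) and 0 lower, beside 3.56% and 4.14% of all loci. They were Tnfaip3 at 1.48, Tnfrsf18 at 1.32, Timp3 at 1.20 and Edar at 1.00. Ngfr and Timp3 between the lines, and Timp3 and Edar with GFP, passed the filter only through their higher library and so had to differ. In the difference of the PMA changes, Traf1 was the 1 of 55 past 2-fold, on the lower side, beside 2.09% of all loci. Adam17, which sheds TNF and its receptors, kept between 33.5 and 37.5 FPKM in the 6 libraries, and Sppl2a, which cleaves the remaining TNF stub, between 54.5 and 73.0 FPKM.

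The loci most like Traf1 over the 6 libraries, by Euclidean distance of centred log2(FPKM + 0.1) among 10544 loci, were Hgf (distance 0.870), Sh2d1b1 (1.43) and Vcam1 (1.49). Hgf had 0.409 and 3.68 FPKM in 427 cells with DMSO and PMA, 0.318 and 2.99 FPKM in SP2bKD cells, 0.0865 FPKM with GFP and 0.138 FPKM with GFP plus EICD. Nearest to Tnf were Egr3 (0.881), Il1rn (1.06) and Relb (1.17). Egr3 had 0.349 and 2.47 FPKM in 427 cells, 0.101 and 1.20 FPKM in SP2bKD cells, 1.00 FPKM with GFP and 3.83 FPKM with GFP plus EICD. In all 3 loci nearest to Tnf, as in Tnf, the GFP plus EICD library was above the GFP library and each PMA library above its DMSO library. These loci were picked by closeness to Tnf over the same 6 libraries, so the shared directions are no separate observation. The likeness is a description over 6 libraries.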

How the data were processed

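RNA was oligo-dT enriched, made into TruSeq libraries and sequenced as 100-base pairs on a HiSeq2500. Per the labels, TopHat2 2.1.1, Cufflinks 2.1.1 and Cuffdiff 2.1.1 were used on GRCm38, and STAR 2.4.0b is also listed. The authors deposited 1 FPKM value per locus and library, over 8948 annotated genes, 12836 with newly assembled isoforms and 3217 newly assembled loci. Of the 25001 loci, 22601 carry a symbol. FPKM moves with the assembled gene model and with highly expressed loci.

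The analysis ran in Python 3.11.15 (pandas 2.3.3, NumPy 2.4.6, SciPy 1.17.1, and matplotlib 3.10.9 for plots). Depth was estimated from 881 single-transcript genes of over 2500 bases, taking the densest lowest value as 1 fragment. Fragments per gene use the longest GENCODE vM21 transcript and are upper estimates. Intervals are 95% conditional binomial intervals, which count PCR copies as independent. The fold-change and depth code was tested on simulated data.

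The 9 genes, the gene and marker lists and the named-gene rule (pathway genes past 2-fold, at most 6 a comparison, with Adam17, Sppl2a and Sppl2b, and the 3 nearest loci to the members of largest PMA and EICD change) were chosen with earlier results of these data known. Alternatives were 0.001, 0.1 or 1 FPKM added, minima of 0.01 or 10 FPKM and 3 scalings. Under each scaling, 0.01 FPKM was added after the values were scaled.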

Additional observations from a re-analysis of the deposited data

Results flagged for a closer look

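Adam17, the sheddase of TNF, had a log2 fold change with PMA of -0.06 in 427 cells and 0.09 in SP2bKD cells, a difference of 0.16. It was picked out because the 2 lines moved in opposite directions, and the difference was not tested, as there was 1 library per condition. Both changes were near 0 and smaller than the shifts of the median of all loci under the median-ratio scaling, 0.096 and 0.12. The opposite signs therefore depend on the scaling.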

How the results depend on the processing

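Of 86 counts of members past 2-fold under other settings, 75 stayed within 1.5 times the reported count and 11 did not. Most of the reported counts were 0, and a 0 that stayed at 0 was taken as unchanged, so this share is no measure of robustness. With a minimum of 10 FPKM, 2 members were higher with PMA in 427 cells and 2 in SP2bKD cells (Tnfrsf12a and Tnfaip2), 1 with EICD (Fas), and 0 were lower in the difference of the PMA changes. With 1 FPKM added, 1 was higher with EICD (Fas) and 0 lower in that difference. With a minimum of 0.01 FPKM, Traf1 became the 1 member higher in SP2bKD than in 427 cells and the 1 lower with GFP than in untransfected SP2bKD cells, and Tnf the 1 higher. With each library scaled to an FPKM sum of 1000000, 4 members were higher in SP2bKD than in 427 cells (Tnfsf9, Tnfrsf1a, Fas and Tnfaip2), a scaling that moved the median of all loci by 0.96. Under it 0 were lower in the difference of the PMA changes, where Traf1 also moved with the 0.01 FPKM added after scaling.

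That scaling moved the median of all loci by -0.25 for PMA in 427 cells, -0.17 for EICD and 0.27 for the difference of the PMA changes, and the median-ratio scaling moved it by 0.12 for PMA in SP2bKD cells. Under the FPKM sum, the log2 fold change was -0.03 for Tnfrsf10b with PMA in 427 cells and -0.11 for Tnfrsf12a with EICD, and Tnfrsf1b (0.54) and Tnfrsf10b (0.55) became higher in SP2bKD cells. The loci higher and lower by over 2-fold went from 416 and 497 to 284 and 867 for PMA in 427 cells, from 333 and 295 to 5445 and 90 between the lines, from 382 and 54 to 280 and 84 with EICD and from 128 and 227 to 196 and 125 in the difference. With the median ratio they went from 373 and 605 to 472 and 431 for PMA in SP2bKD cells. With 1 FPKM added they were 305 and 189, 292 and 275, 197 and 157, and 179 and 19, for PMA in 427 cells, PMA in SP2bKD cells, the lines and EICD. No paired analysis was possible because each condition has 1 library and the labels carry no replicate numbers. At these depths a floor of 3 fragments over the longest transcript is 0.0635 and 0.0704 FPKM for Tnf in the DMSO libraries. A shorter length would raise this floor, so it is a low estimate and no strict limit. A difference of Traf1 between the 2 sorted libraries could not be resolved.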
